A study of Mus musculus with 4 samples.

Results

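The Rab GTPases of vesicle traffic were examined in Langerhans cells, the antigen-presenting cells of the epidermis, from mice with and without the aryl hydrocarbon receptor (AhR), a ligand-activated transcription factor. A gene was taken as a member when its symbol on the array was Rab followed by a number and at most a letter and a further digit. This gave 50 of 12393 genes, measured by 95 of 22626 probe sets, and where a gene had several, the one with the highest mean on the 4 arrays stood for it. The cells came from ear epidermis of AhR exon2 deficient mice (2 arrays) or of wild-type C57BL/6 mice (2 arrays), none of them treated. Both groups shared 16 hours of culture and a sort of viable cells by surface MHC class II, with a stated purity over 95%. The labels do not give the strain background of the deficient mice, the age or sex of either group, or the number of mice behind an array. They describe the cultured material in one place as sheets and in another as a cell suspension. The p-values therefore measure the spread between the arrays of a genotype, called biological replicates in the labels.

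Rab proteins are small GTPases that sit on the membrane of a particular compartment when bound to GTP, recruit effectors there and return to the cytosol when bound to GDP. Each step of vesicle traffic uses its own members. Rab5 proteins act on early endosomes, Rab7 on late endosomes and lysosomes, Rab11 on recycling endosomes, Rab1 and Rab2 between endoplasmic reticulum and Golgi, and Rab3, Rab8, Rab10 and Rab27 on vesicles bound for the cell surface. In Langerhans cells, langerin cycles through recycling endosomes marked by Rab11a, and the Birbeck granules that langerin builds form in that compartment.

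The Langerhans cell lectin langerin (Cd207) had log2 values of 11.21 and 11.71 on the AhR-deficient arrays against 11.00 and 12.06 on the wild-type arrays (replicate 1 first, an order kept throughout). Of 20 measured Langerhans and dendritic cell markers, 17 lay above the array median on all 4 arrays, as did 6830 of all 12393 genes. The array medians were 5.60 to 5.63. Over all probe sets the AhR-deficient arrays correlated with each other at r = 0.990, above every other pair. The wild-type arrays correlated with each other at r = 0.987, below 3 of the 4 pairs across genotypes (0.979 to 0.989). For Actb, the control probe set at the 3' end exceeded that at the 5' end, a gap that grows as RNA is shorter. On the log2 scale it was 2.34 and 2.61 against 3.16 and 2.65, smaller on both deficient arrays than on both wild-type arrays. For Gapdh it was 2.24 and 2.19 against 2.60 and 1.97, and there the genotypes overlapped. Wild-type replicate 1 had the largest gap for both controls. Linear signals summed over 22 keratinocyte markers were 1797 and 1223 against 1115 and 1132, with 8 markers (36.4%) higher and 2 (9.09%) lower without overlap between genotypes, where 18.8% of all genes were higher and 16.6% lower. Over 17 macrophage and neutrophil markers the sums were 2030 and 1606 against 1160 and 1370 (8 higher, 47.1%, and 2 lower, 11.8%). Over 16 T cell markers they were 781 and 819 against 921 and 872 (0 higher, 5 lower, 31.3%), and over 20 Langerhans and dendritic cell markers 37210 and 35210 against 29000 and 33310 (7 higher, 35%, and 3 lower, 15%). Among these 20, H2-Aa and H2-Ab1 of MHC class II, on which the cells were sorted, differed by 1.31 and 1.24. Cd74 differed by 0.93, and Csf1r went the other way at -1.05. The part of single genes in the sum was not tested. No marker was at 0, as the lowest log2 value on any array was 2.901. The part of these differences in the Rab values below was not tested, and in bulk samples fewer cells of a type and less RNA per cell cannot be told apart.

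The comparison of genotypes asks whether the machinery that addresses vesicles differs in cells without AhR. No Rab gene passed the threshold, in either direction. In limma, 0 of 50 had an adjusted p under 0.05, where 0.0323% of all genes did (0.0177% of all probe sets). At an unadjusted p under 0.05 there were 8 of 50 Rab genes, 2 higher and 6 lower in AhR-deficient cells. This is a larger share than the 6.54% of all genes, and the shares were not tested against each other. Limma with a trend or a robust prior gave 4 and 7 such genes of 50, where 6.05% and 6.36% of all genes were. Both priors also gave 0 Rab genes after adjustment. Differences were small, from -0.55 for Rab34 to 0.39 for Rab31, and 25 of 50 were under 0.1 in size. Only Rab34 differed by 0.5 or more. The median over Rab genes was 0.02, beside 0.0065 over all genes. The 95% interval of the difference lay within 1 log2 unit of 0 for 49 of 50 genes, the exception being Rab31, and within 0.5 for 34. A 2-fold difference was thus outside the interval of nearly all members, which does not show that levels were equal. This holds for the probe set that stood for each gene. The other probe set of Rab34 differed by -0.90 (SE 0.08), and a dimmer one of Rab10 by 0.23 (SE 0.41). The plot of differences by role shows each interval.

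**Figure D1:**
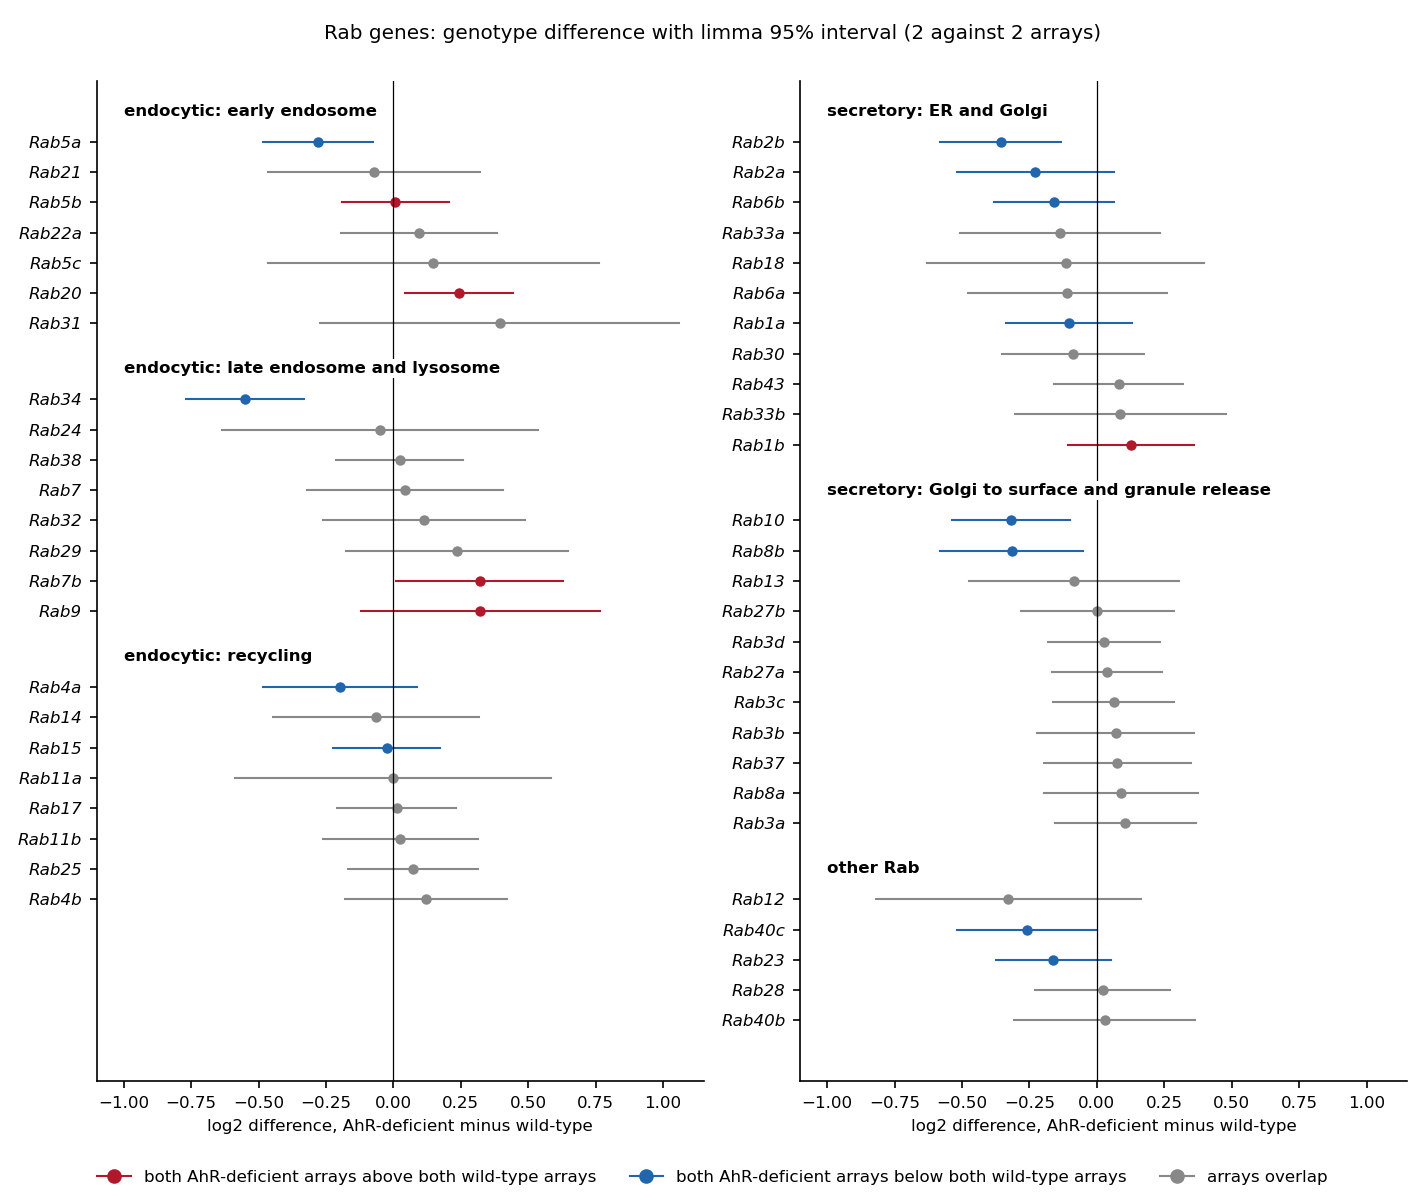
log2 difference, AhR-deficient minus wild-type, for each of the 50 Rab genes by role (points), with the 95% interval of limma's moderated test from 2 against 2 arrays (lines); blue and red mark genes whose arrays did not overlap between genotypes. Rab34 lies farthest to the left at -0.55, and the interval of 42 genes includes 0.

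Non-overlap means that both AhR-deficient arrays lay on one side of both wild-type arrays. It was seen for 5 Rab genes higher (Rab1b, Rab5b, Rab7b, Rab9 and Rab20) and 12 lower (Rab1a, Rab2a, Rab2b, Rab4a, Rab5a, Rab6b, Rab8b, Rab10, Rab15, Rab23, Rab34 and Rab40c). Over all genes 18.8% were higher and 16.6% lower in this sense, against 10% and 24% of Rab genes, so that in total 17 of 50 Rab genes (34%) stood near the background of 35.4%. An exact permutation test on 2 against 2 arrays cannot give a p below 0.333 for any single gene. The count depends on single arrays. Without AhR-deficient replicate 1 it was 12 higher and 19 lower, and without AhR-deficient replicate 2 it was 21 and 17. Leaving out wild-type replicate 1 gave 17 and 16, and leaving out wild-type replicate 2 gave 14 and 18. In these smaller sets 32.4% to 38.9% of all genes were higher and 29.4% to 34.6% lower. Without AhR-deficient replicate 2 the Rab genes, at 34% lower and 42% higher, were close to all genes (33.0% and 38.9%), and without wild-type replicate 1 they were at 32% and 34% beside 29.4% and 35.2%. Fewer Rab genes than all genes were higher without AhR-deficient replicate 1 (38% lower and 24% higher, beside 32.1% and 32.4%) and without wild-type replicate 2 (36% and 28%, beside 34.6% and 34.9%).

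Among the 23 endocytic Rab genes 4 (17.4%) were higher and 4 (17.4%) lower without overlap, with a median difference of 0.03. Of the 22 secretory Rab genes 1 (4.55%) was higher and 6 (27.3%) were lower, with a median of -0.04. Of all genes 18.8% were higher and 16.6% lower. In total 34.8% of endocytic and 31.8% of secretory Rab genes lay without overlap, near the 35.4% of all genes. Leaving out single arrays moved the endocytic median from 0.0072 (without wild-type replicate 1) to 0.11 (without AhR-deficient replicate 2), with 0.02 and 0.09 when AhR-deficient replicate 1 or wild-type replicate 2 was dropped. The secretory median turned to 0.0059 without wild-type replicate 1, and was -0.01 and -0.03 without AhR-deficient replicate 1 or 2, and -0.02 without the wild-type array of replicate 2. The difference between the endocytic and secretory groups was not tested, and both medians lay within the middle 50% of all genes (-0.08 to 0.10).

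On early endosomes, the 3 Rab5 genes did not move together. Rab5a, which drives fusion of early endosomes, had log2 values of 8.85 and 8.80 against 9.09 and 9.11. Both deficient arrays were below both wild-type arrays, and the gaps within a genotype were far smaller than the difference of -0.28 (SE 0.08, 95% interval -0.48 to -0.08), a 1.21-fold lower signal that did not pass in limma (adjusted p = 0.710). It stayed between -0.31 and -0.25 when any array was left out. The isoform Rab5b read 5.02 and 5.02 against 5.01 and 5.01, a difference of 0.0072 that counts as non-overlapping but is far smaller than its SE of 0.07, and its sign turned (-0.0045) when the arrays were centred on their medians. Rab5c, the third isoform, read 8.73 and 8.23 against 8.14 and 8.52. Its arrays crossed, with the highest and the second lowest value both in AhR-deficient cells, and the difference of 0.15 had an SE of 0.23. Its 95% interval ran from -0.46 to 0.76.

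Rab31, which acts between the trans-Golgi network and endosomes, read 7.77 and 7.16 against 7.23 and 6.91. AhR-deficient replicate 1 stood above the rest, and the difference of 0.39 (SE 0.25) was 0.09 without that array and 0.70 without AhR-deficient replicate 2. Its other probe set differed by 0.01. Rab20, known for phagosome maturation, was the only Rab gene below the 25th percentile of every array (4.54 to 4.57). It read 3.98 and 3.95 against 3.73 and 3.72, a difference of 0.24 (SE 0.07, adjusted p = 0.759 in limma) near the low end of the deposited values, and of 0.12 with 16 added on the linear scale. Rab21, linked to integrin traffic, read 10.93 and 10.61 against 10.76 and 10.92, a difference of -0.07 with overlapping arrays. Its other probe set, with 8.47 and 8.17 against 7.94 and 8.16, differed by 0.27. Rab22a differed by 0.10 and overlapped.

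Late endosomal members held both the lowest and 2 of the 3 highest differences of the family. Rab34 binds the lysosomal effector RILP and is known for lysosome positioning and macropinocytosis. It read 6.02 and 5.94 against 6.57 and 6.50. Arrays of a genotype lay within 0.08 of each other, and the difference of -0.55 (SE 0.08, 95% interval -0.77 to -0.33) corresponds to a 1.46-fold lower signal. It had the smallest unadjusted p of all Rab genes (0.0019) but did not pass over all probe sets (adjusted p = 0.458 in limma, 0.185 to 0.992 over all alternatives). The other probe set of Rab34 read 5.37 and 5.34 against 6.31 and 6.20, a larger difference of -0.90 (SE 0.08, adjusted p = 0.254 in limma). Both probe sets therefore had both deficient arrays lower, and the difference of the brighter one ranged from -0.59 to -0.51 when single arrays were left out.

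Rab7, the central Rab of late endosomes and lysosomes, read 9.36 and 9.05 against 9.10 and 9.22. The wild-type arrays fell between the deficient ones, and the difference was 0.04 (SE 0.13, 95% interval -0.32 to 0.41), with -0.0085 for the second probe set. Rab7b, a distinct gene that routes cargo from late endosomes to the trans-Golgi network, read 5.84 and 5.63 against 5.33 and 5.50. Both deficient arrays were higher, by 0.32 (SE 0.11, adjusted p = 0.825 in limma), and the second probe set was also higher without overlap, by 0.11 (SE 0.07). Rab9, which returns mannose 6-phosphate receptors to the Golgi, read 8.93 and 8.94 against 8.40 and 8.83. The deficient arrays were nearly equal while the wild-type arrays were 0.43 apart, so the difference of 0.32 (SE 0.16) was 0.11 without the lower wild-type array (replicate 1) and 0.54 without the other. Rab24, Rab29, Rab32 and Rab38 overlapped between genotypes and differed by -0.05 to 0.24. Rab32 and Rab38 are known from melanosomes. Linear signals summed over 10 melanocyte markers were 703 and 707 against 725.9 and 746.2. Without overlap 1 marker (10%) was higher and 2 (20%) were lower, beside 18.8% and 16.6% of all genes. One of the lower ones, the growth factor receptor Kit, which mast cells also carry, differed by -0.64 (SE 0.12, adjusted p = 0.533 in limma), and the melanin enzyme genes Tyr, Tyrp1 and Dct by -0.09, -0.03 and -0.04 with overlap. The part of these markers in the Rab32 and Rab38 values was not tested.

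The 8 recycling Rabs had the smallest median absolute difference of the 6 role groups (0.04). Rab11a, the recycling Rab tied to langerin, read 8.07 and 8.50 against 8.08 and 8.49. The 2 arrays numbered 1 were low and those numbered 2 high in both genotypes, leaving a difference of -0.0014 (SE 0.22, 95% interval -0.59 to 0.58). The second Rab11a probe set was tighter, with 8.07 and 8.04 against 7.96 and 7.97, and both deficient arrays lay above both wild-type arrays, by 0.09 (SE 0.07, adjusted p = 0.910 in limma). Rab11b read 7.45 and 7.22 against 7.30 and 7.32, a difference of 0.03 (SE 0.11). Its wild-type values lay between the deficient ones, and its 95% interval ran from -0.26 to 0.31. Rab4a, a Rab of fast recycling, read 5.03 and 5.03 against 5.34 and 5.12. Both deficient arrays were lower, and the difference of -0.20 (SE 0.11) was -0.09 without the higher wild-type array (replicate 1) and -0.31 without the other. Its paralogue Rab4b read 6.77 and 6.61 against 6.66 and 6.47, with overlap and a difference of 0.12. Rab25, an epithelial relative of Rab11, read 6.91 and 7.05 against 6.89 and 6.92, again with overlap. The part of keratinocyte transcripts, whose marker sums are given above, in the Rab25 values was not tested. Rab14 read 11.40 and 11.065 against 11.25 and 11.35, a difference of -0.06 with overlap. Its 6 probe sets differed by -0.28 to 0.08, and 2 of them, both dimmer, were lower without overlap. Rab15 and Rab17 differed by -0.03 and 0.01.

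**Figure D2:**
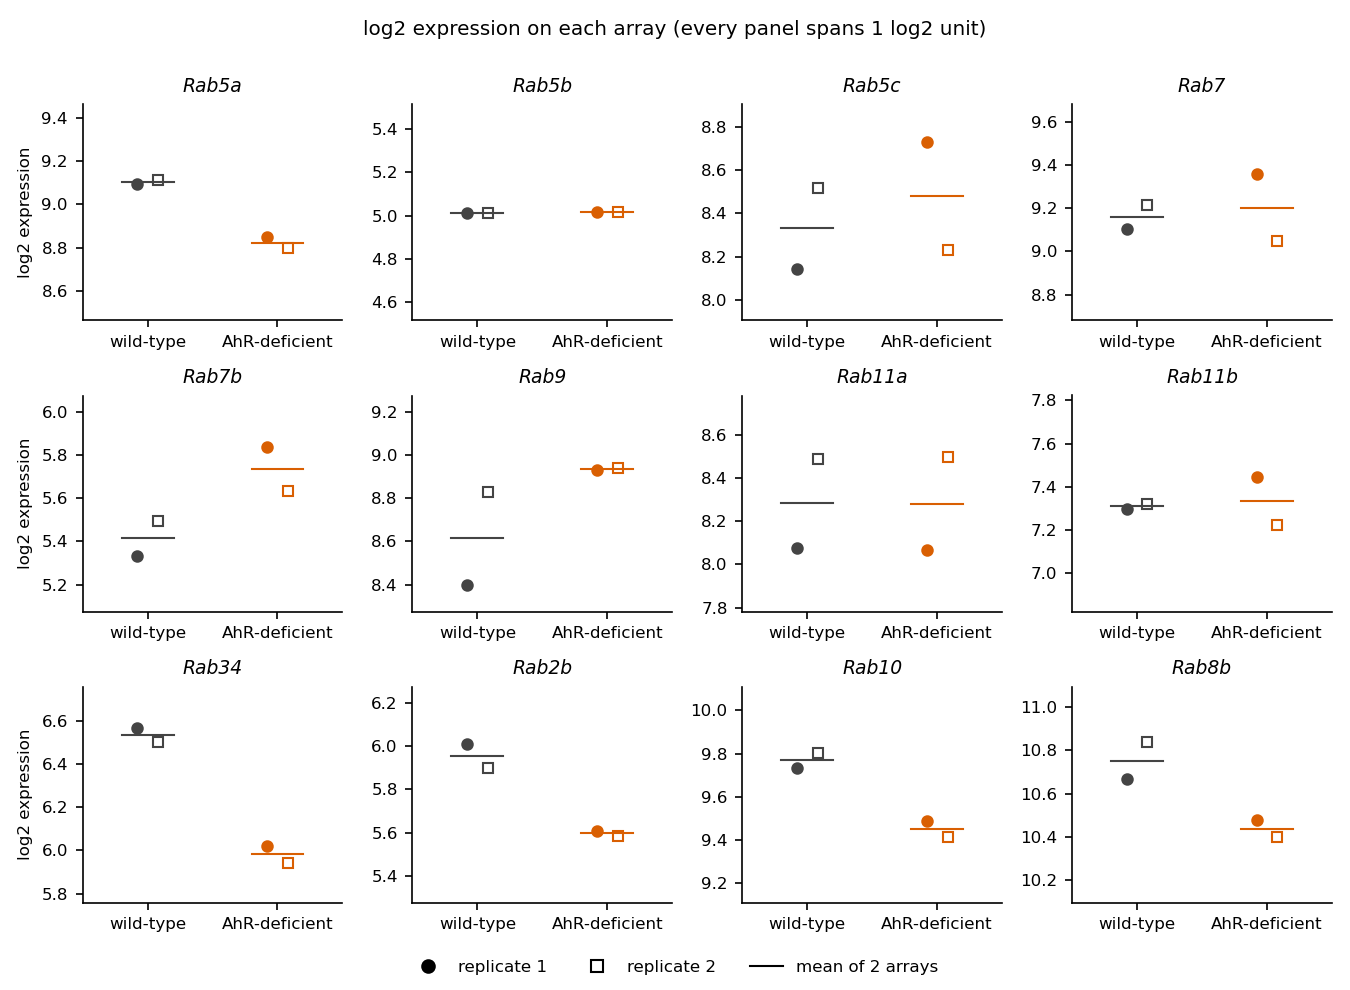
log2 expression on each array for the Rab5, Rab7, Rab9 and Rab11 genes and for the 4 genes with the lowest differences among non-overlapping ones; circles are replicate 1, squares replicate 2, bars the mean of 2 arrays, and each panel spans 1 log2 unit around its own mean. Rab34, Rab2b, Rab10, Rab8b and Rab5a show deficient arrays below wild-type arrays, whereas the 2 arrays of Rab11a are spread alike in both genotypes.

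In the early secretory pathway, 8 of 11 differences were below 0 (median -0.11), and 4 genes (36.4%) were lower and 1 (9.09%) was higher without overlap. Of all 12393 genes, 5920 had a difference below 0, and 16.6% were lower and 18.8% higher without overlap. Rab2b, which acts between endoplasmic reticulum and Golgi, read 5.61 and 5.59 against 6.01 and 5.90. The difference of -0.36 (SE 0.08, adjusted p = 0.660 in limma) had the second smallest unadjusted p of the family, but a further Rab2b probe set differed the other way without overlap (5.29 and 5.26 against 5.15 and 5.07, 0.17 higher), and the mean over its probe sets differed by -0.10. Its paralogue Rab2a read 8.81 and 8.98 against 9.04 and 9.21, a difference of -0.23 (SE 0.11). Of the 7 probe sets of Rab2a, 4 were lower without overlap, differences ranged from -0.26 to 0.09, and their mean was -0.12. Rab6b, a Golgi Rab described mainly in neurons, read 4.82 and 4.72 against 4.92 and 4.94, a difference of -0.16 (SE 0.08). For Rab6a, the widely expressed form, the brighter probe set overlapped (-0.11) and the other was lower without overlap (7.49 and 7.53 against 7.83 and 7.85, -0.33, SE 0.07). Rab1a, which directs transport from endoplasmic reticulum to Golgi, differed by -0.10 and its paralogue Rab1b by 0.13, each without overlap and in opposite directions. Rab18, Rab30, Rab33a, Rab33b and Rab43 overlapped and differed by -0.14 to 0.09.

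Of the 11 Rabs of Golgi-to-surface transport and granule release, 2 (18.2%) were lower without overlap and none was higher. Of all genes 16.6% were lower and 18.8% higher. The median of the 11 was 0.04. Rab10, which carries cargo such as glucose transporters and Toll-like receptor 4 to the surface, read 9.49 and 9.42 against 9.73 and 9.80. The difference was -0.32 (SE 0.08, adjusted p = 0.706 in limma), and the 2 dimmer Rab10 probe sets did not show it (-0.0033 and 0.23, both overlapping), so that the mean over its probe sets differed by -0.03. Rab8b, of the Rab8 pair that carries membrane to the plasma membrane and cilium, read 10.48 and 10.40 against 10.67 and 10.84. Both deficient arrays were lower, by 0.32 in the mean (SE 0.10, adjusted p = 0.768 in limma), and the second, much dimmer probe set overlapped at -0.18. Rab8a, its paralogue, differed by 0.09 with overlap. Rab3a, of regulated exocytosis, read 6.84 and 6.79 against 6.80 and 6.62 and overlapped. The granule Rabs Rab27a, Rab27b, Rab37, Rab3b, Rab3c and Rab3d differed by 0.0017 to 0.08, and Rab13 by -0.08, all with overlap.

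The remaining members have other known roles. Rab40c, whose SOCS box couples it to ubiquitin ligases, read 5.96 and 5.85 against 6.24 and 6.10, a difference of -0.26 (SE 0.10) that its dimmer probe set (0.09) did not share, with -0.08 for the mean of both. Rab23, a regulator of hedgehog signalling, read 5.55 and 5.56 against 5.76 and 5.68, a difference of -0.16 (SE 0.08). Rab12, which sends transferrin receptor to lysosomes, read 7.96 and 7.72 against 7.96 and 8.38. The overlap is by less than 0.01, and the difference of -0.33 (SE 0.18) was -0.12 without the higher wild-type array (replicate 2), -0.54 without the other and -0.21 without AhR-deficient replicate 2. Rab28 and Rab40b differed by 0.02 and 0.03.

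Several probe sets were available for 27 of 50 genes. In 10 of them all probe sets differed in the same direction, and Rab34, Rab7b and Rab4a were the genes whose probe sets all lay without overlap on the same side. In 6 genes, Rab2a, Rab2b, Rab10, Rab14, Rab21 and Rab40c, probe sets of opposite direction were more than 0.3 apart. Non-overlapping probe sets of both directions occurred in 2 genes, Rab2b and Rab23. Over all 95 probe sets 11.6% were higher and 24.2% lower without overlap, beside 19% and 16.2% of all probe sets. Probe sets of a gene share its transcripts and are not independent.

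**Figure D3:**
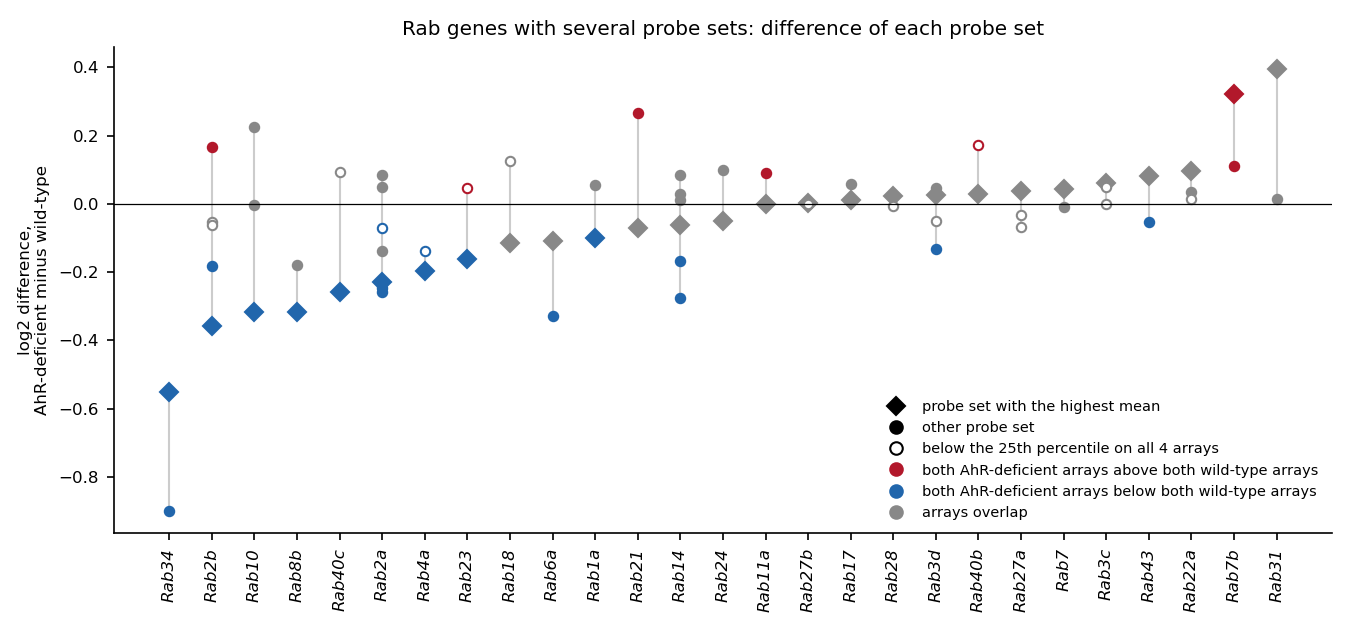
log2 difference, AhR-deficient minus wild-type, of every probe set of the 27 Rab genes with several; diamonds mark the probe set with the highest mean, open symbols lie below the 25th percentile on all 4 arrays, and colour gives overlap. Rab34 has both probe sets below -0.5, while those of Rab2b and Rab10 fall on both sides of 0.

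The 250 bases before the transcription start are shown for the 4 non-overlapping genes with the lowest differences, with the core of the AhR response element in capitals (GCGTG, or CACGC when it lies on the other strand). Sequences are those of RefSeq on GRCm38.p6, read 5′ to 3′ along the gene. They lie at chr11:78188177-78188426 for Rab34 (plus strand), chr14:52279396-52279645 for Rab2b, chr12:3309970-3310219 for Rab10 and chr9:66919706-66919955 for Rab8b (all minus strand).
Rab34: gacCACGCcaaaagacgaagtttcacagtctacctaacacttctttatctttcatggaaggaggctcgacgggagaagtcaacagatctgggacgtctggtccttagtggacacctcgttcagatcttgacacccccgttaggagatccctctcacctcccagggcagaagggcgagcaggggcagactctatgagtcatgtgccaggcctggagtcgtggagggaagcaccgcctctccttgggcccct
Rab2b: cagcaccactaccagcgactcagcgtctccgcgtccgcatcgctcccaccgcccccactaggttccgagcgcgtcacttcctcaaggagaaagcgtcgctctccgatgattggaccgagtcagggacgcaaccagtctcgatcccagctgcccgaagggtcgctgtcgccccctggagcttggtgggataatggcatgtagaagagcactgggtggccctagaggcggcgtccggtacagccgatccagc
Rab10: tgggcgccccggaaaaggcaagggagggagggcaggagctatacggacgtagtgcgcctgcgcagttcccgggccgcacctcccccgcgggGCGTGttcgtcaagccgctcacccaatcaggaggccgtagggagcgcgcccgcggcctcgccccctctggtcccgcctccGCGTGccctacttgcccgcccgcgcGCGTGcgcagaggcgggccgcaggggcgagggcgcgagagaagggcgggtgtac
Rab8b: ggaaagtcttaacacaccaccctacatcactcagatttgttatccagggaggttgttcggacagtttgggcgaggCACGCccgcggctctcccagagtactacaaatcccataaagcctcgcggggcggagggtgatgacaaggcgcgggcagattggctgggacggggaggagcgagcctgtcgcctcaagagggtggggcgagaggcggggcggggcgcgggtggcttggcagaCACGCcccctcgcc
The Rab10 window holds 3 copies, at 159, 79 and 54 bases before the start, Rab8b has 2 and Rab34 has 1. Rab2b has 0, as does the window of a second Rab34 start. Of the 50 Rab genes, 42 were found among the RefSeq promoters, and 19 of them (45.2%) had the core in a window of this kind. The share was 30.9% over all 27025 genes with a RefSeq promoter, a set not limited to genes on the array. Base composition was not matched, and the 4 printed windows had 56.4% to 74.8% G or C. The core was present in 6 of 10 genes lower without overlap, in 2 of 4 higher and in 11 of 28 with overlap. A gene counts if any of its starts has the core, the letters are short and common, and a match is not a site of binding.

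Genes that load, switch and read Rabs were also measured, and 0 of 88 passed the threshold in either direction, beside 0.0323% of all genes. In limma, 6 of the 88 had an unadjusted p under 0.05, where 6.54% of all genes did. Without overlap 20 (22.7%) were higher and 12 (13.6%) lower, beside 18.8% and 16.6% of all genes, and the median difference was 0.03. Gdi2, a GDP dissociation inhibitor that extracts Rabs from membranes, had the lowest difference of the 88, with 11.86 and 11.71 against 12.28 and 12.41. The difference was -0.56 (SE 0.10, adjusted p = 0.533 in limma), and its other 5 probe sets differed by -0.54 to -0.32. Among those 5, 3 lay without overlap on the same side and the others overlapped. Rabggtb, the beta subunit of the enzyme that attaches the prenyl anchor, read 7.60 and 7.53 against 6.999 and 7.41, with 0.36 (SE 0.16). These were the 2 non-overlapping genes of 7 (28.6%) for prenylation and membrane extraction, beside 35.4% of all genes.

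Of 18 exchange factors, which load GTP, 5 (27.8%) were higher and 4 (22.2%) lower without overlap, beside 18.8% and 16.6% of all genes. Rab3ip (Rabin8), an exchange factor of Rab8, read 5.33 and 5.30 against 4.98 and 4.90. It was higher by 0.37 (SE 0.08, adjusted p = 0.624 in limma), whereas Rab8b was lower and Rab8a overlapped at 0.09. Dennd5a, a DENN-domain protein that binds Rab6, read 10.15 and 9.87 against 10.32 and 10.65, a difference of -0.47 (SE 0.16). Hps4, of the exchange complex for Rab32 and Rab38, differed by -0.28 and Als2cl, a relative of the Rab5 exchange factor alsin, by -0.19. Among 17 GTPase-activating proteins 3 (17.6%) were higher and 1 (5.88%) lower. Tbc1d14, a Rab11-binding regulator of autophagy, read 7.86 and 7.56 against 7.28 and 7.22, a difference of 0.46 (SE 0.13) that its other, dimmer probe sets (-0.04 and -0.11) did not share. Tbc1d1, Tbc1d13 and Tbc1d22a differed by 0.16, 0.14 and -0.16.

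Of 27 endocytic effectors and associated sorting genes 5 (18.5%) were higher and 4 (14.8%) lower without overlap, near the 18.8% and 16.6% of all genes. Their median was 0.02. Known effectors of Rab5 had differences of opposite sign. Appl1 differed by -0.22 (SE 0.08) and Eea1, the tether of early endosomes, by 0.25 (SE 0.12). Ehd1, which shapes recycling endosomes, read 10.41 and 10.23 against 10.76 and 10.62, a difference of -0.37 (SE 0.11), with -0.26 to -0.05 for its other probe sets. Osbpl1a, a Rab7-binding lipid sensor, differed by 0.17. Of 19 secretory effectors 6 (31.6%) were higher and 2 (10.5%) lower. Sytl2, an effector of Rab27, read 5.41 and 5.34 against 5.87 and 5.78, a difference of -0.45 (SE 0.08, adjusted p = 0.533 in limma). Sytl1, of the same effector family, differed by 0.16, Bicd2, a dynein adaptor for Rab6, by -0.50 (SE 0.24) with -0.18 to 0.01 for its other 4 probe sets, and Rph3a, an effector of Rab3, by 0.14 at a signal below the 25th percentile of all arrays. Myo5a, the myosin that Rab27a recruits through melanophilin, had the highest difference of the list and is named after its values were seen. It read 8.15 and 7.30 against 7.21 and 7.23, with AhR-deficient replicate 1 well above the other arrays, and differed by 0.51 (SE 0.30, adjusted p = 0.889 in limma), with 0.47 for its second probe set.

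**Figure D4:**
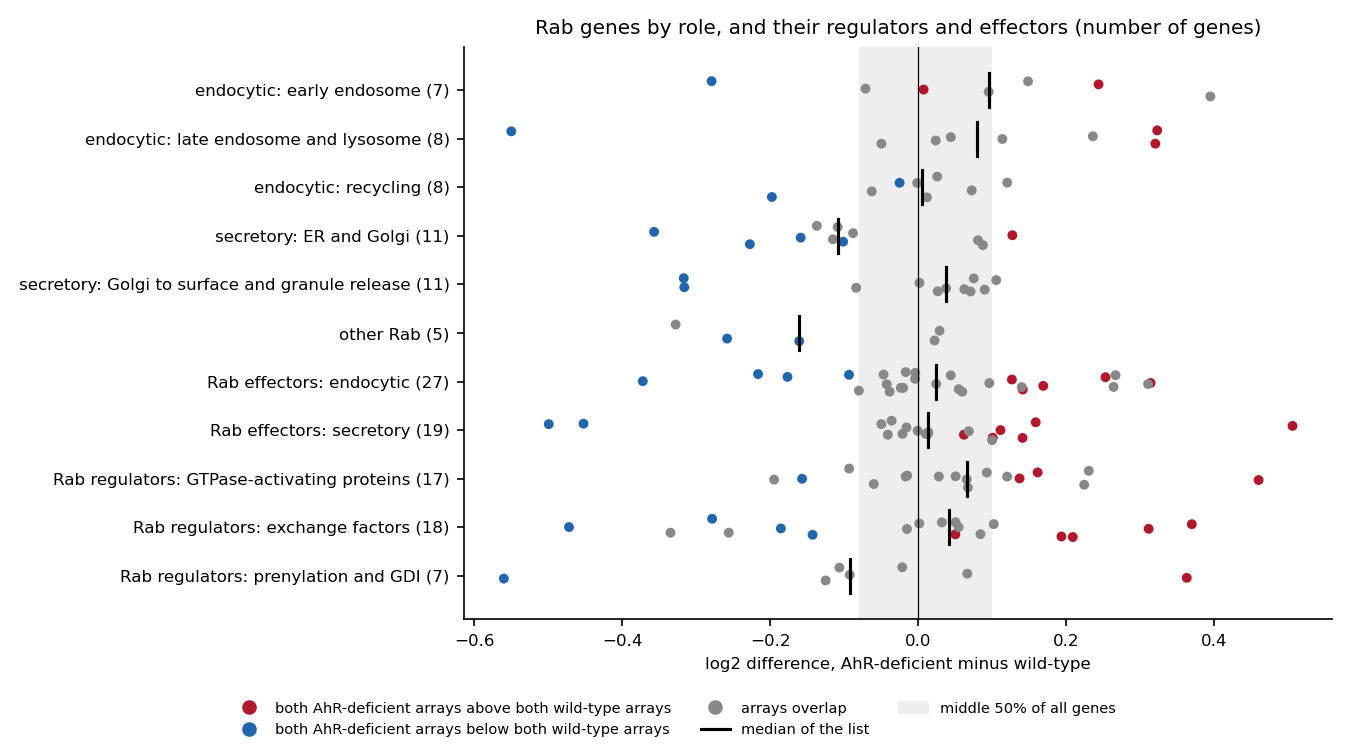
log2 difference, AhR-deficient minus wild-type, of each gene (points) in the 6 Rab role groups and the 5 lists of regulators and effectors, with the number of genes; black bars are list medians and grey the middle 50% of all genes. List medians run from -0.16 for the 5 other Rabs to 0.10 for the 7 early endosomal Rabs.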

How the data were processed

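The authors' deposited values are log2 expression per probe set on Affymetrix MOE430A arrays, and per the submitters' processing notes affy and RMA (background correction, quantile normalisation and probe summary) were used. Tool versions and a genome build are not given in the sources used here. After 64 control probe sets were left out, 22626 were compared between genotypes with limma 3.58.1 in R 4.3.3 (two-sided, residual df 2, prior df 2.272), with Benjamini-Hochberg adjustment over all of them at 0.05. No scaling or filter was added, and the number of arrays limits the precision. Probe set values of different genes are not on a common scale, so levels are not ranked between genes. Genes were named from the platform annotation, and all 50 Rab symbols matched RefSeq genes of GRCm38.p6. The steps were tested on simulated data with planted changes larger than any Rab difference given here. Recovery of differences as small as those of the Rab genes was not tested. Named in full were the Rab5, Rab7, Rab9 and Rab11 genes, Rab genes without overlap and a difference of at least 0.4, the 3 smallest p of each role group, genes with disagreeing probe sets, and up to 4 non-overlapping genes of each regulator list. Members and lists were chosen with earlier results of these data known. The labels do not say that replicate numbers pair arrays, so arrays were not paired in the main comparison (see the closing section).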

Additional observations from a re-analysis of the deposited data

How the results depend on the processing

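No Rab gene and no regulator or effector passed under any of the 15 alternatives, and Rab34 had the smallest p of the family in each of them. The alternatives were a replicate block, a trend or robust prior, quantile normalisation again, array weights, leaving out dim probe sets, 16 added on the linear scale, median centring, leaving out probe sets ending in _s_at or _x_at, averaging the probe sets of a gene, leaving out each array and, chosen after seeing the data, a crossed block. Arrays with the same number deviated from their genotype means in opposite directions over all probe sets (r = -0.309), and the labels do not say that they share a mouse or day. With the replicate block 0 Rab genes passed, and the smallest adjusted p in limma was 0.992. An unadjusted p under 0.05 was seen for 4 of 50 Rab genes, all lower, and for 4.65% of all genes. With the pairing crossed, 0 passed and 8 of 50 had an unadjusted p under 0.05, where 8.4% of all genes did. Leaving out single arrays gave 12 to 21 Rab genes higher and 16 to 19 lower without overlap, and 0 called each time, with medians of 0.0072 to 0.11 for endocytic and -0.03 to 0.0059 for secretory Rabs. Averaging probe sets gave 7 higher (14%) and 11 lower (22%), beside 19.5% and 16.2% of all genes. Median centring gave 4 (8%) and 13 (26%), beside 16.6% and 18.9%. Among the 17 Rab genes without overlap the sign of the difference turned in 1 case, Rab5b with median centring (-0.0045), and in no other alternative. Sizes moved more. The mean over probe sets was nearer to 0 by over 1.5 times for 6 of them, at -0.03 for Rab10, -0.10 for Rab2b, -0.08 for Rab40c, -0.06 for Rab23, -0.12 for Rab2a and -0.02 for Rab1a. With 16 added on the linear scale Rab20 was at 0.12 and Rab6b at -0.10, and after repeated quantile normalisation Rab1a was at -0.16, Rab15 at -0.06 and Rab5b at 0.0037. Leaving out single arrays moved 6 of the 17 by over 1.5 times, beside Rab4a and Rab9 also Rab1a (-0.16 to -0.04), Rab1b (0.06 to 0.19), Rab2a (-0.31 to -0.15) and Rab6b (-0.21 to -0.11). Levels near the floor, as for Rab20, limit what can be seen.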

Other observations

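Small GTPases outside the symbol pattern, picked after their values were seen, also overlapped or differed little. Ran, the GTPase of nuclear transport, read 11.02 and 11.09 on the AhR-deficient arrays against 11.09 and 11.18, and differed by -0.08 (SE 0.08). Ift27, a Rab-like GTPase of ciliary transport, differed by -0.11 (SE 0.14) with overlapping arrays, and the Rab-like genes Rabl3 and Rabl6 by 0.0077 and 0.0065.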
